A study of Mus musculus with 12 samples.

Results

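The 10 genes Cd207, Tyrobp, Fcer1g, Cd68, Cd74, H2-Aa, H2-Ab1, H2-Eb1, Csf1r and Cd52 mark Langerhans cells, other myeloid cells and cells that present antigen on MHC class II. They were chosen by gene name from the 34607 gene names on a one-colour Agilent mouse array, where 14 of the 55681 probes belonged to them. Each gene is read from its brightest probe on average, and the other probes of Csf1r, Cd68 and H2-Ab1 are described beside it. The values are log2 processed intensities set against the array's own 75th percentile, so a level of 0 equals that percentile and a difference of 1 is a doubling.

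The study concerned aging of the hair follicle and set hair follicle stem cells (HFSCs) of young, aged and Col17a1 cKO mice against each other. HFSCs were sorted as CD34 high, ITGA6 high and SCA1 negative, interfollicular epidermal cells (IFE) as ITGA6 high and SCA1 high, and total epidermal cells were taken as well. The labels name these 3 surface proteins only. Young mice were wild-type C57BL/6 of 8 weeks and aged mice wild-type C57BL/6 of at least 22 months; each gave unplucked HFSCs, HFSCs 3 days after depilation by hand, total epidermis and IFE. Control mice were wild-type C57BL/6 of 12 weeks and cKO mice, in which Col17a1 was deleted under the K14 promoter, were 12 weeks old with no strain given; both had received 2 mg of tamoxifen on 5 days, and both gave unplucked and plucked HFSCs. K14 is active in basal keratinocytes, so the deletion was not directed at leukocytes. Each of the 12 groups held 1 array, and n counts matched pairs of arrays. With 1 array per group, p-values measure how far the matched pairs differ from each other, and a real difference between pairs counts as spread. The labels do not say whether samples came from separate mice, so the rest of that spread may be technical.

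Langerhans cells are macrophage-like dendritic cells that live between keratinocytes, carry langerin (Cd207) in Birbeck granules and depend on the receptor CSF1R, whose ligand in skin is IL-34 made by keratinocytes. MHC class II is a pair of an alpha and a beta chain (H2-Aa with H2-Ab1, and H2-Eb1 with its own alpha chain) that is escorted by the invariant chain CD74 until a peptide is loaded. C57BL/6 mice carry a defective gene for the alpha chain that pairs with H2-Eb1, so its transcript is made without the surface dimer. TYROBP (DAP12) and FCER1G are small adaptors that pass signals from activating receptors of myeloid and natural killer cells through a tyrosine motif; CD68 is a glycoprotein of lysosomes, and CD52 a small anchored glycoprotein of lymphocytes and some myeloid cells.

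The sequences below are those that the main results rest on. The Tyrobp probe, read from the array files, gave the largest difference between cell populations and spans an exon junction (mm9, chromosome 7, 31200651 to 31202378); the capitals mark the 4 codons that begin with the tyrosine of its signalling motif and end with a leucine.
Tyrobp probe: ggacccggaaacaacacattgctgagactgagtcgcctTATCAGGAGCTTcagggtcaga
The 2 H2-Ab1 probes overlap by 51 bases (mm9, chromosome 17, 34406296 to 34406355 and 34406305 to 34406363) and differ there by T51C, counted from the 5′ end of the first probe; the capital marks that base in a stretch of 30 bases.
H2-Ab1 probe 1: agattacaaataaacgagacTcagactctg
H2-Ab1 probe 2: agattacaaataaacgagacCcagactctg
Class II genes are switched on together by the coactivator CIITA through a shared promoter module, an X box followed by a Y box. In RefSeq promoters of 300 bases (GRCm38.p6), 5 of the 10 genes had an entry, and those of H2-Aa and H2-Eb1 held the letters GCAAC of the X box followed within 45 bases by the Y box letters CTGATTGG. The capitals mark both, on the strand of the gene, at chr17:34287847-34287924 (-) and chr17:34305756-34305832 (+).
H2-Aa promoter: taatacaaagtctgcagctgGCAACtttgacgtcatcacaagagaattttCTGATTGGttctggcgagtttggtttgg
H2-Eb1 promoter: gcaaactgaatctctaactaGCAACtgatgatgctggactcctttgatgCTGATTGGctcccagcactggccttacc
The gap between the 2 motifs was 25 bases in H2-Aa and 24 in H2-Eb1. Of 32851 promoters, searched on both strands, 4.1% held CTGATTGG, 35.2% held GCAAC and 0.167% held both in this order, and the promoters of Cd207, Fcer1g and Cd68 did not. Among 14 promoters of 12 other class II loading and regulation genes, those of H2-Oa and H2-Eb2 held both. The other 5 genes, H2-Ab1, Cd74, Tyrobp, Csf1r and Cd52, were not analysed here for motifs.

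The scanner software flags a spot that is well above background; the share of such spots ran from 49.71% on the unplucked cKO HFSC array to 64.97% on young total epidermis. Young and aged samples shared slide 1, with age in slide rows and population in slide columns, and control and cKO samples shared slide 2. On slide 2 control samples lay in columns 1 and 2 and cKO samples in columns 3 and 4. Age cannot be told apart from slide row, population from slide column, cKO against control from slide column, or control against young from slide.

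All 10 genes were well above background on both total epidermis arrays and 9 of 10 on both IFE arrays, against 5 to 10 on the 8 HFSC arrays. Of all genes, 68.7% were so in young and 61.1% in aged total epidermis, 57.9% and 66.1% in young and aged IFE, and 55.2% to 68.6% on the HFSC arrays. The HFSC counts thus lay on both sides of that share. The median level of the 10 genes was 1.02 in aged and 0.32 in young total epidermis, -1.14 in young and -1.66 in aged IFE, and between -3.47 and -1.85 on the HFSC arrays. The 4 arrays that were not HFSCs thus ranked above all 8 HFSC arrays. Both total epidermis arrays lay above the other 10 arrays for 6 genes (Tyrobp, Fcer1g, Cd74, H2-Aa, H2-Ab1 and Cd52), beside 2.26% of the 26335 genes well above background on at least 2 arrays. Against the 8 HFSC arrays alone, both total epidermis arrays were higher for 7 genes (Csf1r as well), beside 8.23%, and both IFE arrays for 1, Csf1r, beside 7.59%. The Csf1r margin was not visible at 2 decimals, since young total epidermis, young IFE and plucked aged HFSCs were all at 4.38. At the second Csf1r probe, unplucked control HFSCs, at 0.79, exceeded both total epidermis and both IFE arrays. For Cd207, H2-Eb1, Cd68 and Csf1r at least 1 other array reached the lower total epidermis array.

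**Figure D1:**
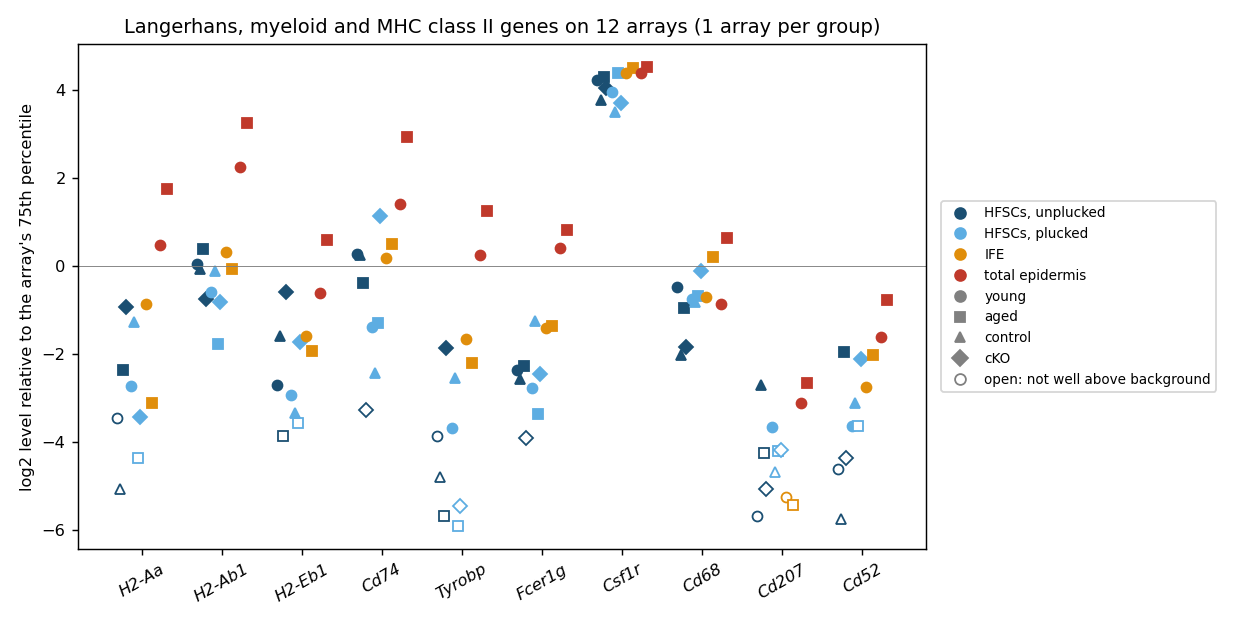
Level of each of the 10 genes on each of the 12 arrays, on a log2 scale against the array's 75th percentile; colour gives the cell population, shape the mouse, and an open symbol marks a probe not well above background. Total epidermis (red) was above the other 10 arrays for 6 genes, whereas Csf1r, at the probe used, stayed between 3.50 and 4.52 on every array.

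Total epidermis holds every cell of the epidermis, and was compared with unplucked HFSCs of the same age. At the probes used, all 10 genes were higher in total epidermis, 9 of them in both pairs (young and aged), beside 34% of 23887 genes tested. Tyrobp and Fcer1g, the 2 adaptors, passed the test (adjusted p under 0.05), beside 1.89% of genes called higher, and none of the 10 was called lower, beside 2.03%. The median difference of the 10 genes was 2.39, against 0.07 over all genes. In these bulk samples more cells of a type and more RNA per cell cannot be told apart. The shares rest on genes proposed with results of these data in view.

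Tyrobp was at 0.24 in young and 1.24 in aged total epidermis, -1.67 and -2.21 in IFE, and from -5.92 to -1.87 (median -4.33) on the 8 HFSC arrays. It was not well above background in unplucked HFSCs of either age, so the difference of 5.52 ± 0.71 (SE, n = 2 pairs, adjusted p = 0.0347) is given as at least 22-fold. Both total epidermis arrays stood clear of all others, and the IFE arrays overlapped with the unplucked cKO HFSC array at -1.87.

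Fcer1g, the adaptor shared by Fc receptors, was at 0.40 in young and 0.81 in aged total epidermis, -1.41 and -1.37 in IFE, and from -3.92 to -1.25 (median -2.53) on the HFSC arrays. The difference from HFSCs was 2.94 ± 0.28 (SE, n = 2 pairs, adjusted p = 0.0238), a 7.67-fold higher level. Total epidermis again did not overlap with any other array, while plucked control HFSCs, at -1.25, exceeded both IFE arrays.

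The 3 class II chains and the invariant chain were higher in total epidermis in both pairs without passing the test. H2-Aa, the alpha chain, was at 0.47 in young and 1.75 in aged total epidermis, -0.87 and -3.11 in IFE, and from -5.08 to -0.94 (median -3.09) on the HFSC arrays, a difference of 4.03 ± 0.95 from HFSCs (SE, n = 2 pairs, adjusted p = 0.108). H2-Ab1, the beta chain that pairs with it, was at 2.24 in young and 3.24 in aged total epidermis, 0.32 and -0.07 in IFE, and from -1.77 to 0.37 (median -0.35) on the HFSC arrays. Its difference of 2.54 ± 0.42 (SE, n = 2 pairs, adjusted p = 0.0525) was 5.82-fold and ended just outside the threshold. H2-Ab1 gave a bright, measured signal on all 12 arrays, and its 2 total epidermis values lay well above the rest.

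H2-Eb1, the beta chain left without a partner in this strain, was at -0.62 in young and 0.59 in aged total epidermis, -1.59 and -1.94 in IFE, and from -3.88 to -0.60 (median -2.83) on the HFSC arrays. It differed from HFSCs by 3.29 ± 0.62 (SE, n = 2 pairs, adjusted p = 0.0682), but the unplucked cKO HFSC array, at -0.60, matched young total epidermis. The probe of H2-Ea, the missing alpha chain, was well above background on 0 of 12 arrays. Cd74 was at 1.40 in young and 2.93 in aged total epidermis, 0.18 and 0.50 in IFE, and from -3.28 to 1.14 (median -0.85) on the HFSC arrays, a difference of 2.23 ± 0.57 (SE, n = 2 pairs, adjusted p = 0.123). Its IFE values lay within the range of the HFSC arrays.

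Cd207, the marker that defines Langerhans cells, was weak everywhere. It was well above background on 4 of 12 arrays: young (-3.11) and aged (-2.66) total epidermis, plucked young HFSCs (-3.67) and unplucked control HFSCs (-2.72). Both IFE arrays, at -5.26 and -5.44, were not above background. Total epidermis was higher than HFSCs by 2.09 ± 0.46 (SE, n = 2 pairs, adjusted p = 0.0931), with HFSCs below background, which gives at least 1.78-fold. The control HFSC array overlapped with the 2 total epidermis arrays. With normexp background correction and quantile normalization the difference was 0.37, its lowest value over 9 alternatives.

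Cd52 was at -1.61 in young and -0.78 in aged total epidermis, -2.75 and -2.04 in IFE, and from -5.76 to -1.95 (median -3.65) on the HFSC arrays, a difference of 2.08 ± 0.57 (SE, n = 2 pairs, adjusted p = 0.143). Total epidermis stood above every other array, by a small margin over aged HFSCs at -1.95. Cd68 was at -0.88 in young and 0.63 in aged total epidermis, -0.72 and 0.20 in IFE, and from -2.03 to -0.13 (median -0.79) on the HFSC arrays. It differed from HFSCs by 0.60 ± 0.54 (SE, n = 2 pairs, adjusted p = 0.594), and in the young pair alone by -0.39. The populations overlapped throughout for Cd68.

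**Figure D2:**
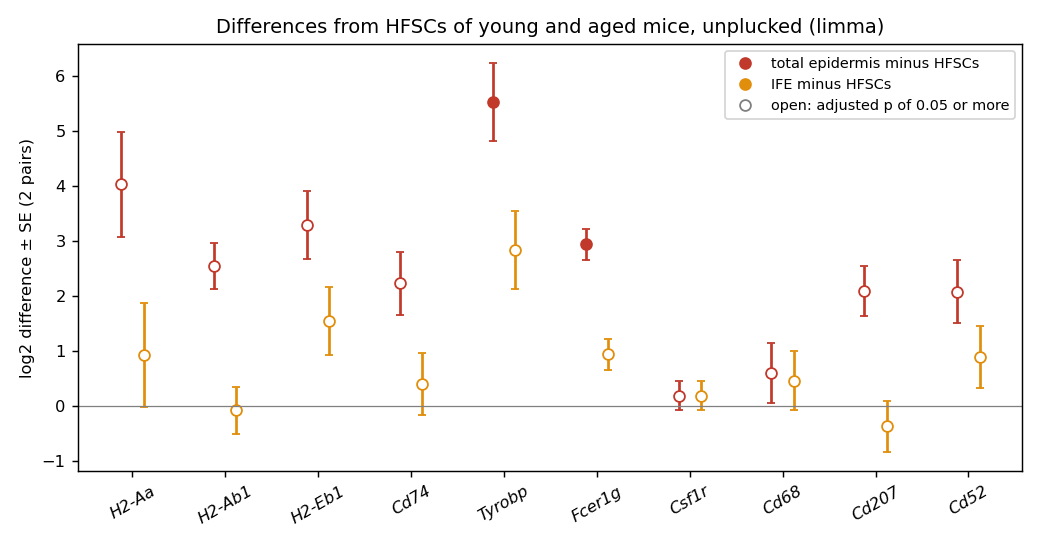
Log2 difference (with the SE of limma, n = 2 pairs) of total epidermis (red) and IFE (orange) from unplucked HFSCs of young and aged mice for each gene; filled symbols passed an adjusted p of 0.05. Tyrobp at 5.52 and Fcer1g at 2.94 are the only filled symbols, and the IFE differences lie between -0.37 and 2.84.

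Csf1r, the receptor that Langerhans cells need to survive, depended on the probe. Its 3 probes lie on chromosome 18 of mm9 (61278661 to 61278720, 61290725 to 61290784, and 61289398 to 61289758 across a junction). The brightest was between 3.50 and 4.52 on all 12 arrays and differed between total epidermis and HFSCs by 0.19 ± 0.26 (SE, n = 2 pairs, adjusted p = 0.731). That probe holds the letters CTG 6 times within 60 bases, as many as 0.242% of 55681 probes hold, while the other Csf1r probes hold them 2 times each; what it measures was not tested.

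The second Csf1r probe followed the other genes more closely. It was at 0.12 in young and 0.46 in aged total epidermis, -1.83 and -1.02 in IFE, and -2.71 and -1.28 in young and aged unplucked HFSCs. Total epidermis exceeded HFSCs by 2.29 at this probe (adjusted p = 0.0501), a choice of probe made after the data were seen, and by 1.83 (adjusted p = 0.0398) with the mean of the 3 probes. Unplucked control HFSCs, at 0.79, and plucked cKO HFSCs, at 0.39, overlapped with total epidermis. The third Csf1r probe was well above background on 3 arrays: young total epidermis (-3.04), aged total epidermis (-1.91) and plucked aged HFSCs (-1.37).

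The other genes with more than 1 probe were Cd68 and H2-Ab1. The second Cd68 probe was well above background on 6 arrays and did not follow the mean of the other 9 genes over the 12 arrays (Pearson r = 0.0283, against 0.501 for the probe used). At the second probe, total epidermis differed nominally from unplucked HFSCs by -0.48 and IFE by -1.19, against 0.60 and 0.46 at the probe used. Young total epidermis and both IFE arrays were below background there. The 2 H2-Ab1 probes, which differ by the single base shown above, followed the mean of the other 9 genes alike (r = 0.917 and 0.892). Both H2-Ab1 probes were highest on the 2 total epidermis arrays.

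**Figure D3:**
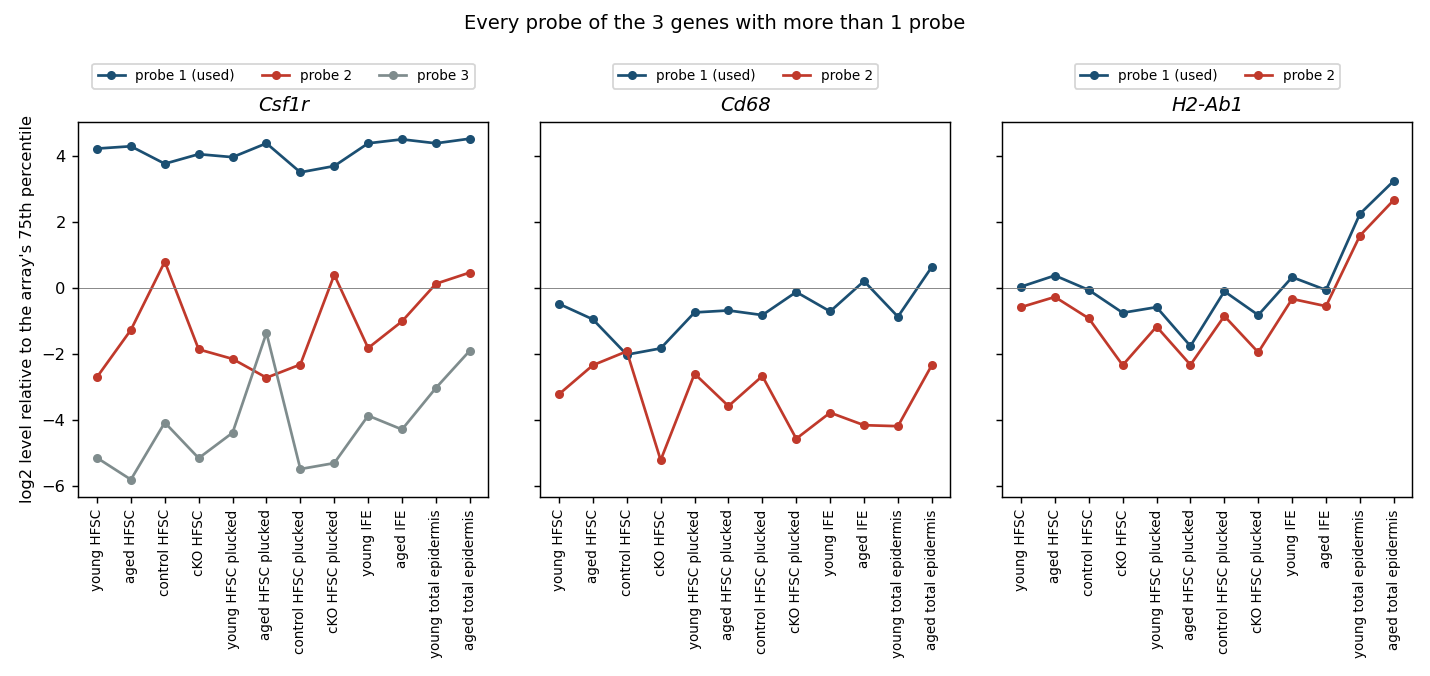
Log2 level of every probe of Csf1r, Cd68 and H2-Ab1 on the 12 arrays, against the array's 75th percentile; each line joins the values of 1 probe and the order of the arrays along it has no meaning. The H2-Ab1 probes run in parallel, whereas the used Csf1r probe is even and the second reaches 0.12 and 0.46 in total epidermis.

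IFE are basal keratinocytes of the skin between follicles and were compared with HFSCs in the same fit. None of the 10 genes passed the test, beside 2.1% of genes called higher and 2.65% called lower, and 2 of them (Tyrobp and Fcer1g) had an unadjusted p under 0.05. Their median difference was 0.68, against 0.09 over all genes; 8 were higher and 2 lower, and 4 were higher in both pairs, beside 36.8%. Tyrobp was higher by 2.84 ± 0.71 (SE, n = 2 pairs, adjusted p = 0.115), at least 3.43-fold, and Fcer1g by 0.94 ± 0.28 (adjusted p = 0.162). H2-Eb1 differed by 1.54 ± 0.62 (adjusted p = 0.271), H2-Ab1 by -0.08 ± 0.42 (adjusted p = 0.944) and Cd74 by 0.40 ± 0.57 (adjusted p = 0.748). Cd207 was below background in both populations.

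Against IFE, total epidermis was higher for all 10 genes and in both pairs for 8, beside 23.4%, with a median of 1.91, against -0.02 over all genes. None passed the test, and of 23887 genes 0 passed in that direction and 0.0126% in the other; 7 of the 10 had an unadjusted p under 0.05. H2-Ab1 differed by 2.62 ± 0.42 (adjusted p = 0.327), Fcer1g by 2.00 ± 0.28 (adjusted p = 0.277), H2-Aa by 3.09 ± 0.95 (adjusted p = 0.985) and Tyrobp by 2.68 ± 0.71 (adjusted p = 0.82), each with n = 2 pairs. The remaining genes differed by 0.01 (Csf1r) to 2.46 (Cd207, below background in IFE, at least 1.90-fold).

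The machinery that loads class II and switches it on gave a mixed picture. Of 18 genes 15 were tested between total epidermis and HFSCs; 12 were higher and 3 lower, with a median of 0.46, and 1 was called in each direction. Cd83, which stabilises class II at the surface, rose by at least 2.74-fold (3.64 ± 0.31, adjusted p = 0.0203), and it also rose in IFE, by at least 3.27-fold (adjusted p = 0.0119). Lgmn, a lysosomal protease, fell by 1.93 (adjusted p = 0.0457). Ctss, the protease that trims CD74, was at -0.31 in young and 0.70 in aged total epidermis and between -6.16 and -2.11 on the other 10 arrays, a difference of 3.46 from HFSCs (adjusted p = 0.146). The peptide-exchange chain H2-DMb2 was at -1.55 and 0.84 in total epidermis and below background in unplucked young and aged HFSCs, at least 10.3-fold (adjusted p = 0.102).

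Ciita, the class II coactivator, had 1 probe, well above background on 12 arrays. Ciita was at 3.36 in young and 3.68 in aged total epidermis, 3.46 and 2.97 in IFE, and 2.90 and 3.56 in young and aged unplucked HFSCs, a difference of 0.29 between total epidermis and HFSCs (adjusted p = 0.72). The levels of Ciita on the 4 arrays of slide 2 were lower, from 1.22 to 2.09. Of 9 class I genes, made by nearly all cells, 2 were called higher than in HFSCs in total epidermis and 3 in IFE; 8 and 9 had a positive difference, while Tap2, a peptide transporter subunit, differed by -0.09 in total epidermis (adjusted p = 0.886). Nlrc5, the coactivator of class I, was higher by 2.13 (adjusted p = 0.0422) in total epidermis and 1.98 (adjusted p = 0.0439) in IFE, and the immunoproteasome subunit Psmb8 by 2.10 (adjusted p = 0.0352) and 2.42 (adjusted p = 0.0216). Psmb9, another subunit, rose in IFE (1.77, adjusted p = 0.0394) and differed by 1.55 in total epidermis (adjusted p = 0.0565), and the 2 populations differed by -0.23 (adjusted p = 1).

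Receptors and kinases that work with the 2 adaptors were mostly weak. Of 21 such genes 11 were tested, 8 were higher in total epidermis than in HFSCs and none passed, with a median of 0.46; 4 had an unadjusted p under 0.05. Plcg2, a phospholipase downstream of these adaptors, fell by 1.76 in IFE (adjusted p = 0.044). Fcer1a, the Fc receptor chain that gave FCER1G its name, was well above background on 0 arrays. Of 11 ligands and survival factors 10 were tested and 1 was called in each direction. Ahr rose by 4.18 in total epidermis (adjusted p = 0.0193) and Id2 fell by 3.78 (adjusted p = 0.0195). Both are transcription regulators with roles in Langerhans cells and in keratinocytes. IFE differed from HFSCs in the same directions. Ahr was at 2.11 in young and 1.88 in aged IFE, against -1.85 and -2.29 in unplucked HFSCs. Id2 was at -2.21 and -1.53 in IFE, against 1.98 and 2.20 in unplucked HFSCs.

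Il34, the CSF1R ligand of keratinocytes, was at 2.97 in young and 2.86 in aged total epidermis, 3.05 and 3.23 in IFE, and 2.40 and 0.50 in young and aged unplucked HFSCs. After plucking its levels were -0.99 in young, 0.61 in aged, -0.89 in control and -2.02 in cKO HFSCs, and the unplucked control and cKO arrays had 2.09 and 3.36. Il34 was lower after plucking in 3 of 4 pairs (-2.91 ± 0.88 by limma, adjusted p = 0.2), and Id2 fell by 2.82 in that test (adjusted p = 0.0447). Csf1, the other ligand, differed by 1.13 between total epidermis and HFSCs (adjusted p = 0.159).

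The label of the gene set was checked against markers of the cells that could carry it. Of 19 Langerhans and dendritic cell markers 6 were well above background on 0 arrays, among them Itgax and Irf8, and 10 were above it in young and 8 in aged total epidermis, against 3 to 10 on the HFSC arrays and 7 and 5 in IFE. Their summed linear level, relative to the array's 75th percentile, was 9.46 in young and 10.66 in aged total epidermis, 7.83 and 8.75 in IFE and 20.1 to 47.7 on the HFSC arrays, where Epcam and Cd24a, which keratinocytes also express, were bright. Of 9 markers tested 7 were higher in total epidermis, with a median of 0.99, and 1 was called: Itgae, an integrin of dendritic cells and epidermal T cells, at least 2.87-fold higher (3.13 ± 0.42, adjusted p = 0.0379), although unplucked cKO HFSCs, at -2.14, exceeded young total epidermis at -2.63. Epcam, an adhesion molecule of Langerhans cells and follicle keratinocytes, fell by 1.72 in IFE (adjusted p = 0.0435). Spi1, the myeloid transcription factor, was above background on the 2 total epidermis arrays only (-3.09 and -2.35).

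Macrophage and monocyte markers were largely weak or even across arrays. Of 20 genes 9 were well above background on 0 arrays, including Mrc1, Lyz2, Aif1, C1qc, Ccr2 and Cd163, and 8 were above it on each total epidermis array, 6 and 8 in IFE and 5 to 9 in HFSCs. The summed level ran from 189 to 377 on the HFSC arrays. It was 240 and 313 in total epidermis and 272 and 249 in IFE. Most of it came from the brightest Itgam probe, which was even (7.37 to 8.41 on 12 arrays). The other Itgam probes were far lower, reaching at most -0.46 and -2.81 on any array. The sums thus depend on the choice of probe, and what the brightest Itgam probe measures was not tested. Cx3cr1, a chemokine receptor of myeloid cells, was called in total epidermis at -1.01 and -0.42, at least 8.01-fold over HFSCs (adjusted p = 0.0193), but unplucked control HFSCs, at -0.77, overlapped with total epidermis. Its difference in IFE (2.52, adjusted p = 0.0347) lies between values that are both below background. Ctsc, a lysosomal protease that keratinocytes also make, was higher by at least 8.79-fold (adjusted p = 0.0193) and in IFE by at least 5.56-fold (adjusted p = 0.0154). Plucked aged HFSCs, at -0.44, exceeded both total epidermis arrays, at -0.69 and -0.47.

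T cell markers were detected most often in total epidermis. Of 16 on the array 14 were above background in young and 15 in aged total epidermis, 9 and 10 in IFE and 7 to 11 on the HFSC arrays, and their summed level was 26.5 and 44.6, 16.9 and 19.4, and 8.68 to 18.4. Of 15 tested between total epidermis and HFSCs 14 were higher, with a median of 2.43, and 3 were called: Cd3g (at least 17.5-fold, adjusted p = 0.0193), Trat1 (at least 10.6-fold, adjusted p = 0.0335) and Cd3e (7.23-fold, adjusted p = 0.0238). Between total epidermis and IFE the median of the T cell list was 2.45 (12 of 15 higher), beside 1.91 for the 10 genes (all higher). In IFE against HFSCs the median of the T cell list was -0.07, against 0.68 for the 10 genes, and between aged and young HFSCs it was 0.45, against -0.26. Cd8a was well above background on 0 arrays, and the probes of Cd247, Cd4 and Nkg7 differed by -0.05 to 0.60. The part that T cells or natural killer cells, which also transcribe Tyrobp, Fcer1g and Cd52, have in the differences was not tested.

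Markers of all leukocytes were higher in total epidermis for 8 of 8 genes tested, and 1 of them was called, Arhgdib (3.08, adjusted p = 0.0233), which was called in IFE as well (3.47, adjusted p = 0.0124). Other leukocytes gave no called gene. The medians were 0.29 for 4 B cell, -0.95 for 2 mast cell and basophil and 0.32 for 6 neutrophil genes. Cd22, Tpsb2 and Csf3r, the brightest probes of those lists, were well above background on all 12 arrays, at 3.18 to 4.53, 0.15 to 1.94 and 6.87 to 7.93.

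**Figure D4:**
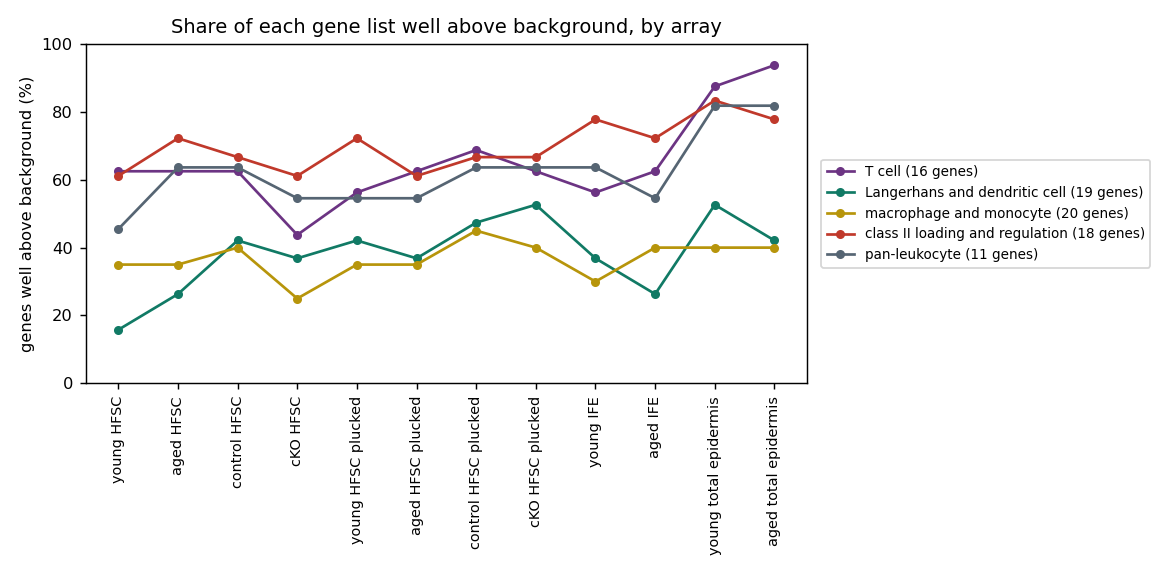
Share (%) of the genes of 5 marker lists well above background on each of the 12 arrays; the order of arrays along the lines has no meaning. T cell markers reach 14 and 15 of 16 genes in total epidermis, while macrophage markers stay between 5 and 9 of 20.

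The genes most like the 10 in pattern were sought among 24852 genes well above background on at least 3 arrays, by Pearson r over the 12 arrays with the mean of the 10 genes, each centred on its own mean. The likeness is a description, since all genes share the same arrays and the total epidermis arrays weigh heavily. The 5 highest with a gene symbol were Alox5ap (r = 0.946), Cd3e (0.936), Lcp1 (0.933), Gm614 (0.921) and Mcf2l (0.914), and Fxyd5 (0.913), Slc9a9 (0.904) and Ctla2b (0.899) followed. Alox5ap, an activator of leukotriene synthesis in leukocytes, was at -0.56 in young and -0.59 in aged total epidermis and between -2.83 and -1.69 elsewhere. Lcp1, an actin bundler of leukocytes, was at 1.24 and 2.35 in total epidermis and between -1.97 and -0.27 elsewhere.

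Within the 10 genes, r with the mean of the other 9 was 0.917 for H2-Ab1, 0.892 for Fcer1g, 0.783 for Tyrobp and 0.773 for H2-Aa. It was between 0.617 and 0.673 for Cd74, Cd52 and H2-Eb1, and 0.501 for Cd68, 0.446 for Csf1r and 0.339 for Cd207. Cd74, the escort of class II, had an r of 0.267 with H2-Aa and 0.697 with H2-Ab1 over these 12 arrays. H2-Aa ran closest to Tyrobp (r = 0.88), and H2-Ab1 to Fcer1g (r = 0.905).

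Age was compared in each population. In total epidermis all 10 genes were higher on the aged than on the young array, beside 49.7% of 24252 genes, and 4 by at least 2-fold, beside 5.2% (0 were lower by that much, beside 6.87%); 1 array stood against 1, so there is no test. Cd74 was higher by 1.52 (1.40 to 2.93), Cd68 by 1.51 (-0.88 to 0.63), H2-Aa by 1.28 (0.47 to 1.75) and H2-Eb1 by 1.21 (-0.62 to 0.59). H2-Ab1 and Tyrobp, at 1.00 and 0.99, ended just under the 2-fold limit, and Cd52 (0.83), Cd207 (0.45), Fcer1g (0.41) and Csf1r (0.14) followed. Of 15 T cell markers 14 were higher as well and 4 by at least 2-fold, with a median of 0.66 against 1.00 for the 10 genes and 0.00 for all genes, and their part was not tested.

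In IFE the genes fell on both sides of 0. There 5 genes were higher and 4 lower than on the young array, with Cd207 below background on both, beside 56.7% higher of all genes, and the median was 0.03. H2-Aa alone changed by at least 2-fold, from -0.87 to -3.11, which is 4.72-fold lower, beside 3.54% of genes lower and 8.55% higher by that much. Fitted over both populations (n = 2 pairs), 9 genes were higher with age and none passed, as for all 22758 genes; Cd68 (1.21 ± 0.28, adjusted p = 0.655) and Cd52 (0.77 ± 0.24, adjusted p = 0.749) had an unadjusted p under 0.05. Of the 10 genes 5 were higher in both pairs, beside 30.7%. The median was 0.27, and it was 1.00 without IFE and -0.07 without total epidermis.

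In HFSCs aged and young did not separate. Fitted over unplucked and plucked pairs, 3 genes were higher and 7 lower, with a median of -0.26, and none passed, as for all 25342 genes (0 of 10 and 1231 genes with an unadjusted p under 0.05). Tyrobp was not well above background in aged HFSCs, at -5.70 unplucked and -5.92 plucked, and at -3.86 (not above background) and -3.68 in young HFSCs. Its nominal difference was -2.04 (adjusted p = 0.93 by limma, n = 2 pairs). With aged HFSCs set to the lowest signal called well above background it was 0.03, so neither size nor direction is measured. By nominal values, in the unplucked pair 2 of the 8 genes measured exceeded a 2-fold increase and 1 a 2-fold decrease, beside 18.5% and 11.5%. In the plucked pair 0 and 3 of 10 did so nominally, beside 9.89% and 10%. Of these 3, H2-Ab1 was 2.27-fold lower with both arrays above background. Tyrobp and H2-Aa were below background in aged HFSCs, with bounds of 1.04-fold and 1.98-fold, so a 2-fold decrease is not shown for them. Cd52 was at -4.62, below background, in young and -1.95 in aged unplucked HFSCs (at least 3.36-fold) and at -3.64 and -3.65 after plucking. H2-Aa was at least 2.13-fold higher with age unplucked, where young HFSCs were below background, and at least 1.98-fold lower plucked, where aged HFSCs were.

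**Figure D5:**
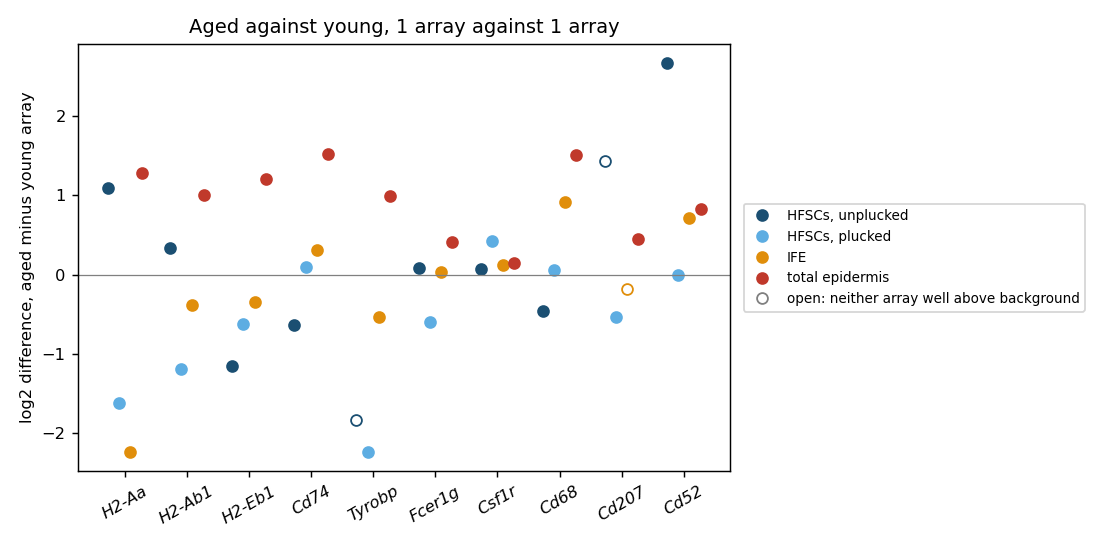
Log2 difference of the aged from the young array for each gene in unplucked HFSCs (dark blue), plucked HFSCs (light blue), IFE (orange) and total epidermis (red); open symbols have neither array well above background. All 10 total epidermis points lie above 0, from 0.14 for Csf1r to 1.52 for Cd74, and the other populations fall on both sides.

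Plucking starts a new hair cycle, and HFSCs 3 days later were compared with unplucked HFSCs over 4 pairs. None of the 10 genes was called, beside 0.501% of 25342 genes (0.395% higher and 0.107% lower), and 0 had an unadjusted p under 0.05. Their median difference was -0.10, against -0.06 over all genes. H2-Ab1 alone differed the same way in 4 of 4 pairs, lower after plucking, beside 15.3% of genes lower and 14% higher in every pair. It was at 0.03, 0.37, -0.07 and -0.76 in unplucked young, aged, control and cKO HFSCs and at -0.59, -1.77, -0.11 and -0.83 after plucking, a difference of -0.72 ± 0.43 (SE, adjusted p = 0.443). The unplucked and plucked values overlapped. The remaining differences ran from -0.70 (H2-Eb1) to 1.04 (Cd52), with SEs of 0.23 to 1.22.

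Between cKO and control HFSCs the 10 genes differed widely and without a common direction. The fit gave 7 higher and 3 lower, a median of 0.13 and 0 called of 10 and of 25342 genes, with 0 of 10 and 1640 genes at an unadjusted p under 0.05. H2-Eb1 was nearest to the threshold: it was at -1.60 in control and -0.60 in cKO HFSCs unplucked and at -3.34 and -1.73 plucked, a difference of 1.31 ± 0.58 (SE, n = 2 pairs, adjusted p = 0.779). Fcer1g was lower in both pairs (-1.28 ± 0.75, adjusted p = 0.823), from -2.58 to -3.92 (not above background) unplucked and from -1.25 to -2.47 plucked. The other class II beta chain, H2-Ab1, was lower in both pairs (-0.71 ± 0.61, adjusted p = 0.888). By nominal values, in the unplucked pair 2 of the 9 genes measured exceeded a 2-fold increase and 3 a 2-fold decrease, beside 17.6% and 20.8%. Those 3 were below background in cKO HFSCs, with bounds of 9.53-fold for Cd74, 1.34-fold for Fcer1g and 1.21-fold for Cd207. A 2-fold decrease is thus shown for Cd74 only. In the plucked pair 2 of 9 genes exceeded a 2-fold increase and 3 a 2-fold decrease, beside 11.5% and 12%.

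For 4 genes the values of the unplucked and plucked pairs lay in opposite directions. One was Cd207, at -2.72 in control and -5.07, below background, in cKO HFSCs unplucked (at least 1.21-fold lower), and below background on both plucked arrays, where its direction is not measured; the others were Cd74, H2-Aa and Tyrobp. Cd74 was at 0.25 in control and -3.28, below background, in cKO HFSCs unplucked, and at -2.43 and 1.14 plucked, so it was at least 9.53-fold lower and then 11.8-fold higher. H2-Aa was at -5.08, below background, and -0.94 unplucked, at least 17.5-fold higher in cKO, and at -1.28 and -3.44 plucked, 4.46-fold lower. Tyrobp was at -4.81, below background, and -1.87 unplucked, at least 7.66-fold higher, and at -2.55 and -5.46, below background, plucked, at least 3.44-fold lower. Each value is 1 array of amplified RNA from sorted cells, the fitted differences of Cd74, H2-Aa and Tyrobp were 0.02 ± 1.72, 1.00 ± 1.58 and 0.01 ± 1.33 (SE, n = 2 pairs, adjusted p = 0.999, 0.958 and 0.999), and the unplucked cKO array had the lowest share of spots above background (49.71%); its part was not tested.

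Between control and young HFSCs, which lie on different slides, 5 genes were higher and 5 lower, with a median of 0.01, and 0 were called of 10 and of 25342 genes (0 and 2218 at an unadjusted p under 0.05). Over the 8 HFSC arrays the SD of a gene was above the median of all genes (0.69) for 7 of the 10. Cd74 had an SD of 1.49 and H2-Aa of 1.43, while H2-Ab1, bright on every array, had 0.67 and Csf1r 0.31.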

How the data were processed

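The scanner values are spot intensities on a linear scale, which the authors made with version 10.7.3.1 of Agilent's Feature Extraction (protocol GE1_107_Sep09, background subtracted and detrended), per the file headers. Sorted cells gave nanogram amounts of RNA, amplified with an Ovation Pico kit and labelled with Cy3, per the labels' protocols. The value table deposited by the authors holds log2 values. On each array they followed the levels used here after each probe was centred on its own median over all arrays (r of at least 0.9999). The table thus holds nearly the same data and is not an independent check. How it was made is not given in the sources used here, and it served as an alternative only.

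Outlier and control spots were left out and spots of a probe averaged after log2 and subtraction of the 75th percentile. Of 55681 probes 28026 were matched to RefSeq symbols by accession. Probe coordinates are mm9, as in the array files. Tests used limma 3.58.1 in R 4.3.3, with the data.table package, version 1.17.8 (lmFit, eBayes, Benjamini-Hochberg over all genes, called under 0.05), on genes that at least 2 of the fitted arrays measured well above background. HFSC contrasts came from 8 arrays (mouse type and plucking, 3 residual degrees of freedom), population contrasts from 6 unplucked arrays (population and age, 2) and age in epidermis from 4 (1). Of the contrasts, 3 were also run on simulated data, where the fit of age over 4 epidermal arrays called no changed gene, so a lack of calls there says little. Where 1 side was not above background, a fold is a lower bound against the lowest signal called well above background on that array, or the probe's own signal if higher. Pairs of single arrays were counted at 2-fold by nominal values, with the brighter above background. Figures used matplotlib 3.10.9 and pandas 2.3.3 in Python 3.11.15.

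The 10 genes and the 17 marker and pathway lists (218 genes; Trdc, Tcrg-V5 and Ighm were not found by name) were chosen with earlier results of these data known. Named from each list were genes called in total epidermis or IFE against HFSCs or in plucking (at most 4 by size) or, with none called, the 3 brightest, the 3 brightest of other leukocytes, Csf1, Il34 and Ciita, and the 10 genes most like the members in pattern; Ctss, H2-DMb2, H2-Ea, Fcer1a, Spi1, Epcam, Cd24a, Itgam, Cd8a and the markers at background were named after their values were seen. Alternatives were normexp with quantile normalization, quantile normalization, other filters, the mean of all probes, the value table, left-out pairs, slides and, added after seeing the data, the second Csf1r probe. No column of another series was present (0).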

Additional observations from a re-analysis of the deposited data

Results flagged for a closer look

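Each result here is a difference between 2 contrasts whose single arrays moved opposite ways; none of these differences was tested, and most include an array below background, where the size is not measured and only the bound holds. Fcer1g was lower after plucking in young and aged HFSCs (mean -0.75) and higher in control and cKO HFSCs (mean 1.39), a nominal difference of 2.14. The first 2 mouse types lie on slide 1 and the last 2, which alone had tamoxifen, on slide 2. Mouse type, slide and tamoxifen thus cannot be told apart in this difference. Unplucked cKO HFSCs were below background, and the cKO part is at least 1.45-fold. H2-Aa differed with age by 1.28 in total epidermis and -2.24 in IFE, a difference of 3.52 with all 4 arrays above background. In HFSCs its nominal differences with age were 1.09 unplucked and -1.63 plucked (2.72 apart), with young unplucked and aged plucked HFSCs below background and bounds of 2.13-fold and 1.98-fold. From control to cKO, Tyrobp differed nominally by 2.94 unplucked and -2.91 plucked (5.85 apart), with bounds of 7.66-fold and 3.44-fold since control unplucked and cKO plucked HFSCs were below background. H2-Aa differed by 4.15, at least 17.5-fold with control unplucked HFSCs below background, and -2.16 (6.30 apart). Cd74 differed by -3.53, at least 9.53-fold with cKO unplucked HFSCs below background, and 3.57 (-7.10 apart).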

How the results depend on the processing

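No paired analysis was possible because each group held 1 array, so that the replicate number, 1 in every group, cannot serve as a block; the pairs named in the text are arrays matched by age or mouse type as terms of the fits. Array number limits every test. Fcer1g passed in total epidermis against HFSCs under all 8 tested alternatives (adjusted p = 0.0159 to 0.047), and Tyrobp under 7 of 8 (0.0256 to 0.0548, the latter with no filter). Both genes have 1 probe, so other filters and other uses of probes left their values unchanged. Those alternatives could move their adjusted p only through the other genes, and the value table holds nearly the same differences. The members called there numbered 4 with the mean of all probes (Csf1r, Fcer1g, H2-Ab1 and Tyrobp) and 1 with no filter (Fcer1g), against 2; their median, 2.39, was 1.70 with normexp and 2.40 to 2.99 with an age left out. In IFE against HFSCs the median of 0.68 was 0.33 with normexp, 0.80 with the mean of all probes and 0.55 to 0.70 with an age left out. The cKO median of 0.13 was -0.02 with the mean of all probes, 0.03 with the second Csf1r probe and 0.24 to 0.34 with a pair left out.

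All genes called in plucking, 127, became 1113 with normexp (727 higher, a split of another size than 100 of 127), 271 with the mean of all probes, 22 with no filter, 298 with the stricter filter, 0 without any 1 mouse type and 0 within slide 1 or slide 2. In total epidermis against HFSCs, 936 became 1425 with normexp and 326 with no filter; in IFE against HFSCs, 1135 became 608 with no filter. In total epidermis against IFE, 3 became 5 with the mean of all probes, 0 with the value table, with no filter and with the stricter filter, and 22 over all 8 arrays. Signs turned with an age left out, in total epidermis against HFSCs, for Cd68 (-0.39 to 1.58) and, in IFE against HFSCs, for Cd207 (-1.18 to 0.44; 0.01 with normexp), Cd68 (-0.23 to 1.15; -0.36 with the mean of all probes), Cd74 (-0.07 to 0.88), H2-Ab1 (-0.44 to 0.29), H2-Aa (-0.73 to 2.60) and Cd52 (-0.09 to 1.87). H2-Ab1 passed in total epidermis against HFSCs under 3 of 8 tested alternatives, and H2-Eb1 and Csf1r under 1 each. Counts with no filter came with more genes tested; the other causes were not tested. Of the other values of single genes, 183 kept direction and side of the threshold.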

Other observations

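The remaining marker lists describe the cells that the comparison of total epidermis with unplucked HFSCs sets apart. All 10 bulge markers were lower in total epidermis, with a median of -3.72, and 5 were called, among them Cd34, used in the sort, and the stem cell receptor Lgr5, which fell by 5.56 (adjusted p = 0.0203 by limma). Of 4 fibroblast genes 3 were called lower, such as the collagen gene Col1a2, which fell by 4.69 (adjusted p = 0.0195), and the median was -4.18. Of 6 melanocyte genes the pigment protein Pmel rose by 2.46 (adjusted p = 0.037) and the transcription factor Mitf fell by 3.17 (adjusted p = 0.0203). Of 10 keratinocyte genes Krt1, a keratin of differentiating cells, rose by 2.16 (adjusted p = 0.0379), with a median of -0.13 over the list. Of 13 interferon gamma response genes the receptor chain Ifngr1 rose by 2.66 (adjusted p = 0.0323), and the median was 0.57. None of 3 endothelial genes was called, and 0 had an unadjusted p under 0.05 (median 0.11).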
